A study of Mus musculus with 12 samples.

Results

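The genes described here are the cyclins A to H, the cyclin-dependent kinases (CDKs), the CDK inhibitors, the E2F factors and the 3 retinoblastoma proteins of the mouse, together with proteins named after one of them. ESRRB bound at these genes in embryonic stem cells was measured by ChIP-seq, in which chromatin is precipitated with an antibody and its DNA sequenced. Of 21900 protein-coding genes annotated by RefSeq on GRCm38.p6, the assembly that mm10 names, 63 matched these symbols. A region was counted to a gene when that gene was the nearest protein-coding gene and the region's centre lay inside it or within 50 kb of its span. This gave 291 of 86201 regions, at 56 of the 63 genes, with a median of 4 regions per gene that had any and 26 at Ccnd3. Ccnb3, Ccndbp1, Cdk2, Cdk5, Cdk5r1, Cdk10 and E2f5 had no region. A region assigned by distance need not act on its gene, and the counts measure ESRRB and not the RNA of these genes.

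Both lines are labelled NanogKO:Esrrb, so endogenous Nanog is lacking in both. Esrrb is named in the labels of both lines as well, and in what form it is present there is not stated. The line without Nanog is NanogKO:Esrrb and the line with Nanog is NanogKO:Esrrb:Nanog, with 3 ESRRB ChIP libraries each, called A, B and C after the columns of the table. The 12 samples, 6 of them inputs not used here, share the cell line label N{delta}:cE:iN. Cells grew untreated in serum with leukaemia inhibitory factor. How Nanog was restored, whether a line is 1 clone, and whether libraries came from separate cultures is not stated by the labels, so the p-values reflect only how far these libraries spread, which may be technical. Fixation was with formaldehyde alone or followed by a glutarate crosslinker, and which sample had which is not stated either. Counts in regions summed to between 2734338 and 5193707 per library without Nanog and between 6689166 and 8382646 with Nanog, so the libraries with Nanog are deeper. Fold changes are with Nanog over without Nanog and relative to the other regions. CPM values are counts in a region relative to the library's counts in all tested regions, scaled by TMM, the trimmed mean of M-values.

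D-type cyclins with CDK4 or CDK6, and then cyclin E with CDK2, phosphorylate the retinoblastoma protein and its relatives in G1, which frees the activating E2F factors to switch on genes of DNA replication. Cyclins A and B with CDK2 and CDK1 drive S phase and mitosis. INK4 inhibitors block CDK4 and CDK6, CIP/KIP inhibitors bind cyclin-CDK complexes more widely, and E2F7 and E2F8 repress E2F targets. Mouse embryonic stem cells are known for a short G1 and for CDK activity that varies little over the cycle. ESRRB, a nuclear receptor with no known natural ligand, binds DNA as a monomer at the letters TCAAGGTCA, and NANOG is a homeodomain factor that also sustains pluripotency.

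Regions overlapped a promoter window at 24 of the genes, and 4 of these promoters are printed to show what the bound starts look like. Windows run from 250 bases before to 50 after a RefSeq start site, and the 250 bases before the start are printed 5′ to 3′ on the gene's strand (RefSeq, GRCm38.p6). Ccnd3, at chr17:47504801-47505050 on the plus strand, is the only member whose window held AAGGTCA, the core of the ESRRB letters. E2f2, at chr4:136172024-136172273 on the plus strand, and Ccna1, at chr3:55055056-55055305 on the minus strand, are the promoters whose region was called. Cdk15, at chr1:59256656-59256905 on the plus strand, had the promoter region with the most ESRRB signal among the members. Capitals mark AAGGTCA on the opposite strand in Ccnd3, CCAAT in E2f2 and CCAAT on the opposite strand in Ccna1.
Ccnd3: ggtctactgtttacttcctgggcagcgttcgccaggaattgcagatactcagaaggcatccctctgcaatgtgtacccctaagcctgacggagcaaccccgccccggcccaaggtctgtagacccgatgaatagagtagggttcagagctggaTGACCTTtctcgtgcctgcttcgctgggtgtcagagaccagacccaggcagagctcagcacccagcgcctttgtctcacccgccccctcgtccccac
E2f2: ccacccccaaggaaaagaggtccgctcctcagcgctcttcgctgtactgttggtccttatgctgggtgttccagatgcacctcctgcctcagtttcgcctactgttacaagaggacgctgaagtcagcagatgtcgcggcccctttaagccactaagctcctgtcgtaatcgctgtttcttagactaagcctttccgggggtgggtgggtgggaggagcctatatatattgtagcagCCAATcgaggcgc
Ccna1: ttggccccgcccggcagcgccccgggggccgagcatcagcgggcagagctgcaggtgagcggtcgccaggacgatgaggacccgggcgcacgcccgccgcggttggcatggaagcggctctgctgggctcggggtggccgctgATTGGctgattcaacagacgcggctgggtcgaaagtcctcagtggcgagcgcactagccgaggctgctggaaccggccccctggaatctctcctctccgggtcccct
Cdk15: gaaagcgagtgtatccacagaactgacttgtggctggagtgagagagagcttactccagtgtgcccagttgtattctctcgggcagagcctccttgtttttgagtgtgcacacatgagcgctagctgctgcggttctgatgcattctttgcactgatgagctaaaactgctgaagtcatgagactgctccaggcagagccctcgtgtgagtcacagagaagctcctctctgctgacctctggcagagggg

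ESRRB at these genes differed between the lines in both directions, at single regions of some genes and at several regions of others. Of the 287 member regions that could be tested, 27 rose and 18 fell with Nanog and 242 were not called, by the quasi-likelihood test of edgeR at a threshold of 0.05 on the p adjusted after Benjamini-Hochberg over all regions. Without library B with Nanog there were 16 higher and 9 lower calls, and with DESeq2 15 and 12. The higher calls made up 9.41% of the member regions, beside 9.42% of all 84892 regions tested, and the lower calls 6.27%, beside 9.78%. Calls of either kind came to 15.7%, beside 19.2% of all regions. The share of higher calls was thus that of the table as a whole. The median log2 fold change was 0.03, with quartiles of -0.28 and 0.32, and over all regions it was -0.01, with quartiles of -0.33 and 0.32. Changes of at least 2-fold numbered 11 among the higher and 3 among the lower calls. Such changes were not counted over all regions, so this split is not shown to be particular to these genes. In 43 of the 45 called regions the libraries of the lines did not overlap, beside 93.5% of all 16303 called regions. At 26 of the 287 regions only the libraries with Nanog reached the count filter, so that a region could be tested there only if it was high with Nanog. Of these 26, 5 were called, all higher and all by at least 2-fold, at Ccna1, Cdk19, Cdk5rap2, E2f1 and E2f8, and they support no direction. Regions reaching the filter in 1 line only set aside, 22 higher and 18 lower calls were left among 259 regions, or 15.4%, beside 18.5% of all 76625 such regions. Among 55 genes with a tested region, 10 had higher calls only, 9 lower calls only, 6 had both and 30 had none. With libraries thinned to equal totals there were 16 higher and 11 lower calls. Of the 45 calls, 40 could be tested after thinning and 25 were kept.

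**Figure D1:**
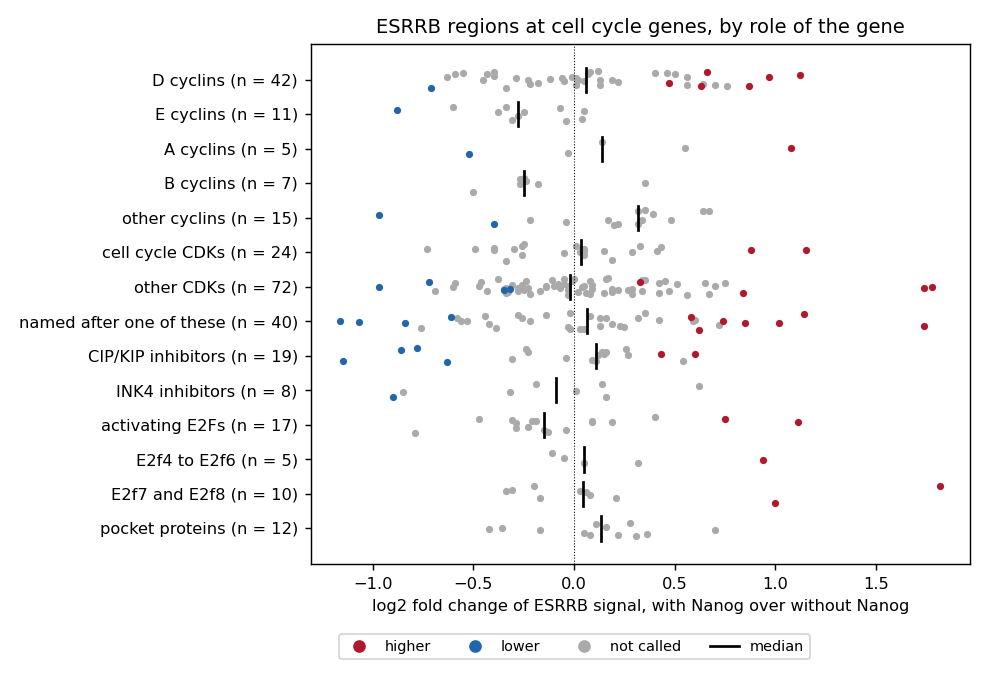
Each point is 1 tested region at a cell cycle gene, with its log2 fold change of ESRRB signal with over without Nanog on the x axis and the role of its gene on the y axis (n = regions). Red and blue points passed the edgeR test, the black bar is the median of a role, and medians lie between -0.28 for the E cyclins and 0.32 for the other cyclins.

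The D cyclins, which carry mitogen signals to CDK4 and CDK6, held 6 higher and 1 lower call among 42 regions. That was 16.7%, beside 19.2% of all regions tested. Ccnd3 spans 47505051 to 47599689 on chromosome 17 and took 26 of the 42 regions, 5 higher and 1 lower. Its most strongly bound region, inside the gene at 47510935 to 47512106, held 69.3, 75.7 and 72.0 CPM without and 77.0, 67.5 and 74.3 CPM with Nanog. The lines overlapped there, and the log2 fold change was 0.01 ± 0.11 (SE). The higher calls lay elsewhere, 3 of them as neighbours within 3.15 kb at the 3′ end of the gene, from 47595680 to 47598832. The broadest of the 3, at 47597891 to 47598832, held 29.1, 29.2 and 24.3 CPM without and 42.6, 45.9 and 40.9 CPM with Nanog. Every library with Nanog was above every library without it, a log2 fold change of 0.66 ± 0.14 (adjusted p = 0.00101, edgeR with Benjamini-Hochberg adjustment). The region next to it, at 47596821 to 47597134, rose by 1.12 ± 0.29 on the log2 scale, from 3.59 ± 0.738 to 7.53 ± 1.65 CPM (SD, n = 3 per line). That call was lost after thinning and on leaving out library B with Nanog or C without, with log2 fold changes of 0.92 to 1.23 over the libraries left out. The lower call, at 47582824 to 47583127, was from 9.18 ± 1.33 to 5.51 ± 0.725 CPM (log2 -0.71), and it was kept in 6 of 15 alternatives and lost on leaving out any library but C without Nanog (-0.83 to -0.61). The other 3 higher calls of Ccnd3, with log2 fold changes of 0.47, 0.63 and 0.87, were each lost on leaving out 4 or 5 of the 6 libraries.

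Ccnd2, another D cyclin, on chromosome 6, had 1 call among 13 regions. It was inside the gene at 127130338 to 127130991, where the libraries held 7.83, 14.0 and 7.65 CPM without and 19.7, 19.2 and 18.6 CPM with Nanog. No library with Nanog reached down to those without, and the log2 fold change was 0.97 ± 0.21 (edgeR, Benjamini-Hochberg adjusted p = 0.00141), kept in all 16 alternatives. The other 12 regions of Ccnd2 had log2 fold changes from -0.63 to 0.76. Ccnd1, on chromosome 7, had 3 regions and no call. Its strongest, 2.08 kb from the gene, held 11.2, 8.69 and 18.8 CPM without and 12.2, 13.2 and 14.5 CPM with Nanog. The spread without Nanog covered all 3 libraries with Nanog.

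Among the other cyclins, calls made up 9.09% of 11 E cyclin, 0% of 7 B cyclin and 40.0% of 5 A cyclin regions. For cyclins C, F, G and H they made up 13.3% of 15 regions, beside 19.2% of all regions tested. Ccne1, the cyclin E partner of CDK2, had a strongly bound region 0.737 kb upstream of its start, at 38107750 to 38108704 on chromosome 7. It held 55.6, 60.3 and 59.6 CPM without and 60.2, 55.5 and 52.1 CPM with Nanog and was not called, and no other of its 7 regions was. Ccne2, the second E cyclin, fell on chromosome 4 at 11184657 to 11184938, a site 5.64 kb from the gene, from 7.76 ± 0.953 to 4.15 ± 0.655 CPM (log2 -0.88 ± 0.26). This call was lost after thinning and on leaving out library A or B with Nanog, with log2 fold changes of -1.01 to -0.77 over the libraries left out. The B cyclins of mitosis, Ccnb1 and Ccnb2, had 7 regions with 0 calls by edgeR, DESeq2 and limma-voom, also 0 at an unadjusted p under 0.05, and a median log2 of -0.25. Ccna2, the A cyclin of somatic cells, had 1 region, not called, at 5.72 ± 2.72 and 6.43 ± 0.744 CPM.

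Ccna1, the germ-line A cyclin, had 1 higher and 1 lower call, and neither was stable. At its promoter, at 55055101 to 55055300 on chromosome 3, the libraries held 1, 5 and 9 counts without and 20, 26 and 19 with Nanog, or 1.18 ± 0.722 and 2.80 ± 0.338 CPM. Only the libraries with Nanog reached the count filter. The log2 fold change was 1.08 ± 0.39 (edgeR, Benjamini-Hochberg adjusted p = 0.0489), and the call was kept in 6 of 13 alternatives and lost on leaving out any library but C without Nanog (0.80 to 1.54). Its strongest region, 46.9 kb away, was lower, from 20.5 ± 4.88 to 14.4 ± 1.23 CPM, but libraries of the lines overlapped, and the call was kept in 4 of 16 alternatives and lost when any library other than B without Nanog was left out (-0.69 to -0.32). Cyclins C, F, G and H held 15 regions and 2 lower calls, with a median log2 of 0.32. Ccng2, linked to cell cycle arrest, fell by 0.97 on the log2 scale 7.24 kb from the gene, from 14.5, 8.69 and 7.65 to 5.25, 4.01 and 5.86 CPM. That call was lost without library B with Nanog or A without (-1.16 to -0.68). Ccnh, the partner of CDK7 in the CDK-activating kinase, held 74.2, 61.4 and 69.8 CPM without and 55.6, 46.9 and 53.3 CPM with Nanog at 85146423 to 85147238 on chromosome 13, 42.5 kb away (-0.40 ± 0.12). The groups did not overlap, but the call was lost with the loess offset and without library B or C with Nanog or A or C without (-0.46 to -0.33).

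The CDKs of the cell cycle held 2 higher and 0 lower calls among 24 regions, or 8.33%, beside 19.2% of all regions tested. DESeq2 and limma-voom gave the same counts, and 2 regions were lower at an unadjusted p under 0.05 (edgeR). Cdk6, a G1 kinase, had the larger of the 2 and the smallest adjusted p of all member regions. Inside the gene, at 3386453 to 3387231 on chromosome 5, the libraries held 17.2, 14.3 and 21.6 CPM without and 37.9, 38.8 and 42.7 CPM with Nanog. The lowest library with Nanog was well above the highest without, and the log2 fold change was 1.15 ± 0.16 (edgeR, Benjamini-Hochberg adjusted p = 5.87e-06), kept in all 16 alternatives. The other 10 tested regions of Cdk6 were not called, among them its promoter at 19.5 and 18.6 mean CPM and its strongest region, with 34.2 ± 3.17 CPM without and 39.3 ± 2.25 CPM with Nanog. Cdk7, the kinase of the CDK-activating complex, had the other call, inside the gene at 100724433 to 100724903 on chromosome 13. It rose from 5.09 ± 1.84 to 9.58 ± 1.22 CPM (0.88 ± 0.26) and lost the call without library C with Nanog or A or C without (0.73 to 1.15). Cdk1, the mitotic kinase, had 9 regions and no call, with log2 fold changes from -0.49 to 0.33. Cdk4, the other G1 kinase, had 2 and no call, the stronger at its promoter with 12.3 ± 2.58 and 10.5 ± 0.676 CPM.

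CDKs outside the core cycle had 4 higher and 4 lower calls among 72 tested regions, or 11.1%, beside 19.2% of all regions. Cdk19, a kinase of the Mediator complex, on chromosome 10, held 4 of these 8, all inside the gene. At 40479664 to 40480022 it went from 3.36, 2.80 and 3.92 CPM without to 10.6, 8.84 and 15 CPM with Nanog, a log2 fold change of 1.74 ± 0.28 (edgeR, Benjamini-Hochberg adjusted p = 5.15e-05). Higher calls were also made at 40425663 to 40426411 (0.84 ± 0.21) and at 40354145 to 40354368 (1.78 ± 0.38, with 3, 7 and 3 counts without Nanog, where only the libraries with Nanog reached the count filter). Between them, at 40442312 to 40442664, ESRRB fell from 11.2, 9.54 and 6.86 to 4.96, 4.13 and 4.59 CPM (-0.97 ± 0.25). All 4 calls of Cdk19 were kept in every alternative that tested them, but the one at 40354145 to 40354368 supports no direction. The other higher calls and the lower one show opposite directions at different sites of 1 gene.

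Cdk12, a kinase of RNA polymerase II, had the member region with the most signal, rank 21 of all regions tested by mean log-CPM. It lies 17.7 kb past the gene on chromosome 11, at 98297212 to 98300327, and spans 3116 bases, so that per kb of width, at 64.9 CPM per kb, it is below the regions of Cdk8 and Ccnh, at up to 90.8 and 73.8 CPM per kb. The libraries held 248, 186 and 246 CPM without and 185, 160 and 187 CPM with Nanog, library B without Nanog falling within the range with Nanog. The log2 fold change was -0.35 ± 0.10 (edgeR, Benjamini-Hochberg adjusted p = 0.0126), and the call was lost with DESeq2, with the loess offset and without library B with Nanog or A or C without (-0.47 to -0.27). The region beside it was called too (-0.32 ± 0.12), kept the call in 5 of 16 alternatives and lost it on leaving out any single library (-0.38 to -0.26). Cdk15 had 2 of the 10 regions with most signal. One, 24.6 kb past the gene on chromosome 1, at 59376037 to 59378144, was higher at 90.8, 80.0 and 81.0 CPM against 57.8, 68.4 and 73.0 (0.33 ± 0.11), a call lost with DESeq2 and when any 1 library with Nanog or A without was left out (0.26 to 0.42), and the other, inside it, was not called at 72.0 ± 4.12 and 60.3 ± 5.27 CPM. Cdk13, a relative of Cdk12, had a lower call inside the gene (-0.72 ± 0.22), lost after thinning and without library A or B with Nanog or C without (-0.85 to -0.39). Cdk9, the kinase of elongation factor P-TEFb, had 2 regions, both under the count filter.

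The CIP/KIP inhibitors held 2 higher and 4 lower calls among 19 regions, the lower ones all downstream of the gene. Calls of either kind came to 31.6%, beside 19.2% of all regions tested. Cdkn1a, which encodes p21, a target of p53, spans 29090979 to 29100722 on chromosome 17. Upstream of it 2 neighbouring regions were higher and just past its 3′ end 1 was lower. The region 17.4 kb upstream, at 29072748 to 29074317, is its strongest and held 22.7, 27.8 and 29.8 CPM without and 41.0, 42.3 and 39.6 CPM with Nanog. Libraries of the lines were well apart, with a log2 fold change of 0.60 ± 0.14 (edgeR, Benjamini-Hochberg adjusted p = 0.00298), kept in all 16 alternatives. The region 22.1 kb upstream held 25, 25 and 22.4 CPM without and 28.7, 34.8 and 33.4 CPM with Nanog (0.43 ± 0.15), a call lost with DESeq2, after thinning and without library B or C with Nanog or A or C without (0.38 to 0.51). Past the 3′ end, at 29100893 to 29101223, the libraries held 14.5, 10.4 and 12.7 CPM without and 6.12, 4.84 and 5.99 CPM with Nanog. This was a fall by 1.15 ± 0.23 on the log2 scale (edgeR, Benjamini-Hochberg adjusted p = 0.000602), kept in all 15 alternatives that tested it. The promoter of Cdkn1a was bound at 11.6 and 12.5 mean CPM and not called.

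Cdkn1b, which encodes p27, on chromosome 6, had 3 lower calls and none higher among 9 regions, at 11.7, 13.4 and 31.2 kb downstream of its start site. The middle one, at 134933553 to 134934118, held 24.6, 24.4 and 27.3 CPM without and 15.3, 16.9 and 17.3 CPM with Nanog, a log2 fold change of -0.63 ± 0.16 that lost its call after thinning. The first fell from 7.91 ± 0.491 to 4.37 ± 0.670 CPM (-0.86), a call lost with DESeq2 and without library A with Nanog or C without (-0.96 to -0.75). The third rested on library B without Nanog, at 23.8 CPM beside 10.8 and 11 in the others. Its log2 fold change of -0.78 moved to as little as -0.29 over the libraries left out, and the call was lost without that library and without A or C with Nanog. Between the calls lay the strongest region of Cdkn1b, 15.9 kb from the start, which held 47.0, 53.0 and 37.3 CPM without and 45.9, 54.5 and 51.5 CPM with Nanog and was not called. Cdkn1c, which encodes p57, had 1 weak region, not called, at 3.11 ± 1.09 and 3.94 ± 0.809 CPM.

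**Figure D2:**
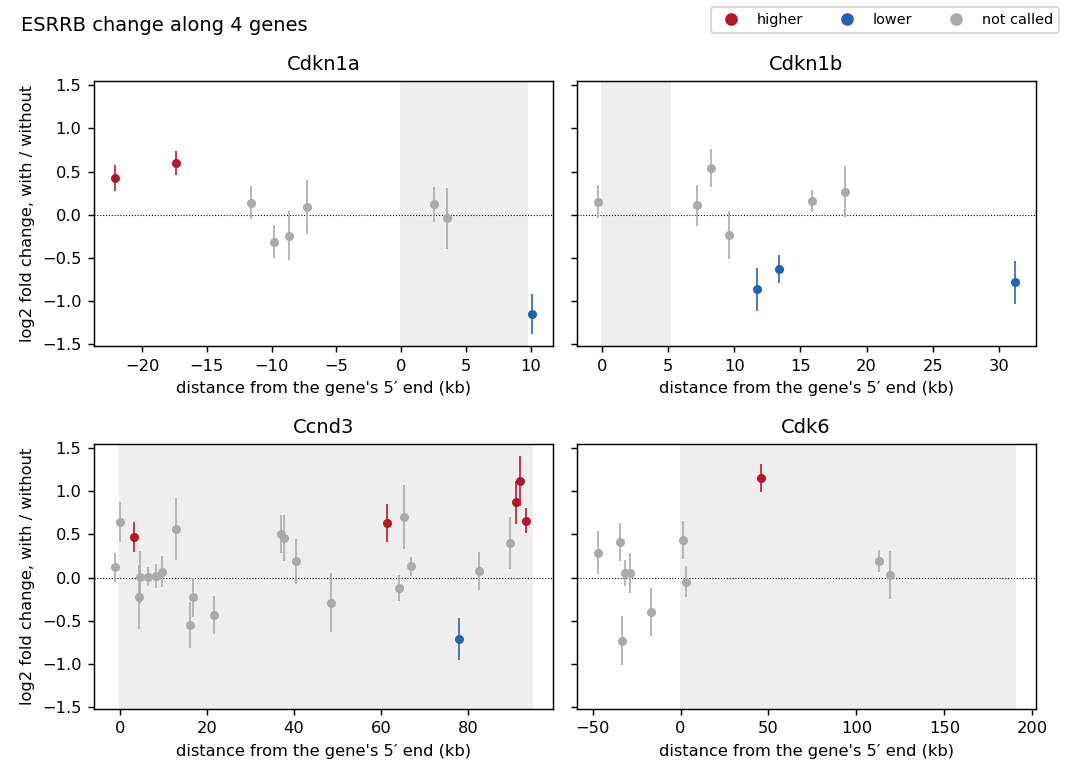
Log2 fold changes of ESRRB regions (points, with SE as bars) along Cdkn1a, Cdkn1b, Ccnd3 and Cdk6, by distance in kb from the 5′ end of each gene, whose span is shaded. Higher (red) and lower (blue) calls lie at different sites of 1 gene, as with 0.60 upstream of and -1.15 past the end of Cdkn1a, and 1.15 at 1 site inside Cdk6.

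The INK4 inhibitors held 1 lower call among 8 regions, or 12.5%, beside 19.2% of all regions tested. It was at Cdkn2a, which encodes p16 and p19ARF, inside the gene at 89292092 to 89292400 on chromosome 4. The libraries held 7.46, 8.41 and 11.8 CPM without and 5.69, 4.25 and 5.35 CPM with Nanog, so all with Nanog were below those without. The log2 fold change was -0.90 ± 0.25 (edgeR, Benjamini-Hochberg adjusted p = 0.00987), and the call was lost after thinning and without library B with Nanog or C without (-1.01 to -0.64). Its other region, at 89278251 to 89278432, was not called at -0.85. Cdkn2b, which encodes p15, lies beside Cdkn2a and had 2 regions with log2 fold changes of -0.19 and 0.62, neither called. Cdkn2c, which encodes p18, was the most strongly bound of the 4, with 34.9 ± 5.61 CPM without and 39.2 ± 2.31 CPM with Nanog 3.62 kb from the gene, and was not called. Cdkn2d, which encodes p19INK4d, held 10.8 mean CPM in both lines at its promoter.

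The E2F factors held 5 higher and 0 lower calls among 32 regions, in sites both at and far from their starts. Of all regions tested, 9.42% were higher and 9.78% lower, or 19.2% called. At an unadjusted p under 0.05, edgeR had 2 regions lower, and DESeq2 and limma-voom called 0 lower and 2 and 4 higher. Of the 5, those of E2f1 and the narrow one of E2f8 reached the count filter only with Nanog. Without such regions 3 higher calls among 29 regions were left, and of all regions kept in this way 18.5% were called. E2f8, a repressor of E2F targets, had the largest change among the members when counts of all regions of a gene were summed. The region of E2f8 inside the gene, at 48867440 to 48867738, was not called at -0.17. Its strongest region, 36.3 kb upstream of the start, at 48917349 to 48918377 on chromosome 7, held 17.2, 22.4 and 19.6 CPM without and 35.1, 45.9 and 38.4 CPM with Nanog. The lowest library with Nanog was above the highest without, and the log2 fold change was 1.00 ± 0.16 (edgeR, Benjamini-Hochberg adjusted p = 2.83e-05), kept in all 16 alternatives. A narrow region beside it had 3, 1 and 3 counts without and 12, 21 and 19 with Nanog (1.82 ± 0.48), and as only the libraries with Nanog reached the count filter, it adds no support to the first. E2f7, its partner in repression, had 7 regions and no call, the strongest at 25.3 ± 2.98 and 20.1 ± 2.61 CPM.

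E2f2, an activating E2F, rose at its promoter. At 136171426 to 136172465 on chromosome 4, over the start site printed above, the libraries held 9.69, 10.4 and 10.2 CPM without and 14.7, 17.8 and 18.6 CPM with Nanog. The lines did not overlap, and the log2 fold change was 0.75 ± 0.20 (edgeR, Benjamini-Hochberg adjusted p = 0.00661), a call kept in 15 of 16 alternatives and lost after thinning. The strongest region of E2f2, inside the gene, held 76.4, 68.4 and 72.6 CPM without and 65.3, 63.0 and 67.8 CPM with Nanog and was not called. E2f1 had a higher call on 6, 3 and 7 counts without and 23, 28 and 20 with Nanog, inside the gene (1.11 ± 0.37), where only the libraries with Nanog reached the count filter, and the call was lost with limma-voom, with the loess offset and without library A or B with Nanog or B or C without (0.88 to 1.4). Its strongest region was not called, with 20.8 ± 3.92 and 16.8 ± 0.258 CPM. E2f3 had 6 regions, 2 of them over promoter windows, and no call. E2f6, which represses without binding pocket proteins, had 1 higher call 27.4 kb away (0.94 ± 0.30), lost with DESeq2 and without library B with Nanog or C without (0.73 to 1.03). E2f4, a repressor that binds pocket proteins, had 1 region, not called.

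The pocket proteins, which hold E2Fs in check, held 0 calls among 12 regions by edgeR, DESeq2 and limma-voom, also 0 at an unadjusted p under 0.05, with a median log2 of 0.13. Rb1, on chromosome 14, had 6 regions, with log2 fold changes from 0.05 to 0.70. Its strongest held 24.6, 21.6 and 21.6 CPM without and 25.4, 32.0 and 25.9 CPM with Nanog, a log2 fold change of 0.31 ± 0.16 (edgeR, Benjamini-Hochberg adjusted p = 0.177). The libraries did not overlap there, but the difference was not past the threshold. Rbl1, which encodes p107, was at 9.35 ± 0.735 and 11.9 ± 1.94 CPM at its strongest region. Rbl2, which encodes p130, was at 6.31 ± 2.34 and 4.67 ± 1.28 CPM in a region that also lies inside Aktip.

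**Figure D3:**
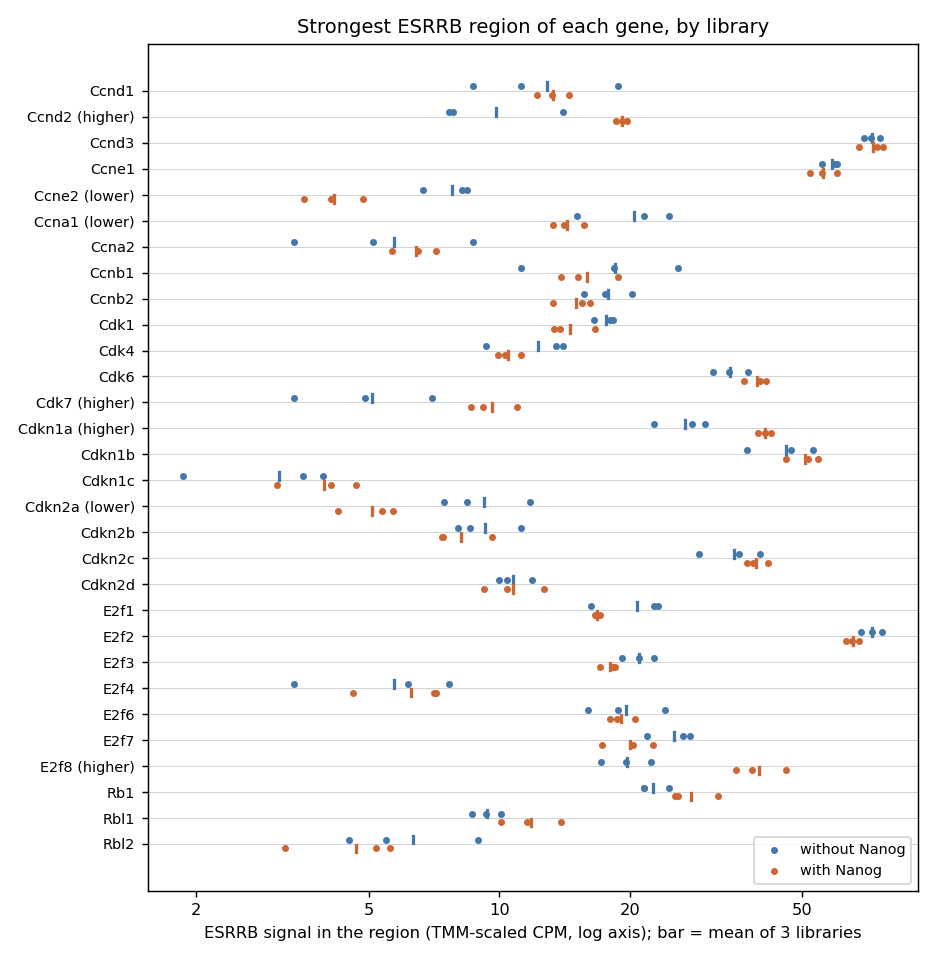
ESRRB signal at the strongest region of each of 30 cyclin, CDK, inhibitor, E2F and pocket protein genes, in TMM-scaled CPM on a log axis. Points are the 3 libraries of each line, bars their mean, and the genes marked higher or lower passed the edgeR test, such as E2f8 from 19.7 to 39.8 mean CPM.

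Genes that only carry the name of a cyclin, CDK or inhibitor held 7 higher and 4 lower calls among 40 regions. That was 27.5%, beside 19.2% of all regions tested. Ccnb1ip1, a ubiquitin ligase of meiotic crossing over, fell 0.968 kb upstream of its start, at 50796456 to 50796935 on chromosome 14, from 21.6, 20.8 and 21.2 to 9.33, 11.6 and 9.17 CPM. This was a log2 fold change of -1.07 ± 0.18 (edgeR, Benjamini-Hochberg adjusted p = 0.000114), kept in all 16 alternatives. Cdk5rap1, an enzyme of mitochondrial tRNA modification, had the largest fall among the called member regions, from 12.8 ± 2.50 to 5.60 ± 0.158 CPM at 154243888 to 154244270 on chromosome 2, inside its annotated span but 129 kb from its start site (-1.16 ± 0.23). That span, of 151 kb, also covers Bpifb5, Bpifb9a and Bpifb9b, and the region lies 3.18 kb from Bpifb5, so which gene it belongs to is uncertain. Cdk5rap2, a centrosome protein, had 2 higher calls close together inside the gene on chromosome 4. The broader, at 70332450 to 70333387, rose from 16.4 ± 4.95 to 27.5 ± 2.32 CPM and lost its call after thinning, and the other, with 0, 3 and 8 counts without and 20, 35 and 21 with Nanog, reached the count filter only with Nanog. Cdkn2aip, which encodes an ARF-binding protein, had 3 higher calls and 1 lower upstream of its start on chromosome 8. The region at 47759976 to 47760876, 46.5 kb away, went from 26.8, 29.7 and 24.1 to 39.4, 52.0 and 52.5 CPM (0.85 ± 0.15), and the one 49.6 kb away, the last inside the limit of 50 kb, from 7.85 ± 0.989 to 17.6 ± 1.85 CPM. Just outside the limit, 50.4 kb away, another held 5.10 and 8.99 mean CPM. It was called higher too (0.88 ± 0.28, edgeR, Benjamini-Hochberg adjusted p = 0.0239), so the limit cuts through a run of higher calls.

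Counts of all regions within 50 kb were also summed to give 1 value per gene. Of 56 member genes, 9 were higher and 5 lower, 25% in all, beside 23.6% of 15887 genes tested (edgeR, Benjamini-Hochberg adjusted p under 0.05). Among all genes 11.1% were higher and 12.5% lower, and the median log2 fold change was 0.04 over the members and -0.01 over all genes. E2f8 had the largest increase, from 29.7, 34.3 and 26.9 to 50, 63.2 and 53.5 CPM over 3 regions (0.89 ± 0.13, edgeR adjusted p = 6.93e-05), though with regions within 10 kb alone it was not called, at -0.14. Cdkn2a had the largest decrease, from 22.0, 14.0 and 17.6 to 9.37, 8.08 and 11.4 CPM (-0.87 ± 0.20). Cdk6 rose from 167, 177 and 187 to 216, 218 and 224 CPM over 12 regions (0.31 ± 0.07), and Ccnb1ip1 fell by 0.63 ± 0.15 on the log2 scale. These last 3 genes kept their calls in all 11 alternatives.

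The other calls on summed counts were smaller or lost in at least 1 alternative. Ccnd3 rose from 460, 459 and 450 to 520, 544 and 498 CPM (0.19 ± 0.06), lost without library B with Nanog. Cdk19 (0.32), lost without C with Nanog, and Cdkn2aip (0.37), not called and at -0.22 within 10 kb, were higher. Cdk5rap2 (0.45) lost its call without B with Nanog or A or C without. Cdk12 (-0.30), lost at 10 kb, was lower. Cdk7 (0.54), Ccnc (0.45), which had no called region of its own, Cdk5rap3 (0.30), Ccnh (-0.29) and Cdkn2aipnl (-0.45) lost their calls with DESeq2 and on leaving out 4 or more of the 6 libraries. Over the libraries left out, the ranges were 0.37 to 0.78, 0.34 to 0.67, 0.17 to 0.50, -0.33 to -0.23 and -0.52 to -0.38 in that order, and Ccnh stood at 0.18 within 10 kb. Cdkn1a (0.19 ± 0.08) and Cdkn1b (-0.05 ± 0.08) were not called on their sums, and neither were Ccnd1, Ccnd2, Ccne1 or Cdk1.

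**Figure D4:**
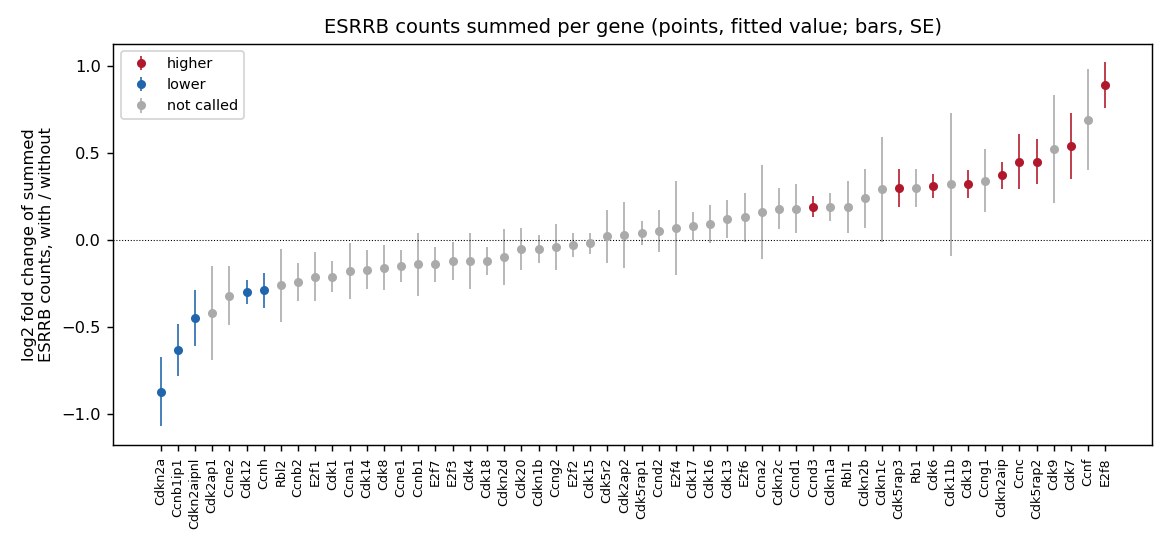
Log2 fold change with over without Nanog of ESRRB counts summed over all regions of a gene (points, with SE as bars), for 56 genes in order of the fold change. Red and blue genes passed the edgeR test and run from -0.87 at Cdkn2a to 0.89 at E2f8.

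Promoter windows were then read alone. A promoter window was given for 50 of the 63 genes, 58 windows in all, and 25 regions at 24 genes overlapped one. Of these 25, E2f2 and Ccna1 were higher and 0 were lower, with a median log2 of 0.08 and a range from -0.56 to 1.08. At an unadjusted p under 0.05, edgeR had 5 higher and 1 lower, and DESeq2 and limma-voom each called 1 higher and 0 lower. Of 4902 promoter regions of all genes 7.02% were called, so that 2 of 25 is near the background. The Ccnd3 promoter region held 6.34, 6.45 and 9.81 CPM without and 14.9, 10.4 and 11.5 CPM with Nanog. The libraries did not overlap, but its log2 fold change of 0.64 missed the threshold (edgeR, Benjamini-Hochberg adjusted p = 0.0505). It passed the threshold with each other scaling tried. DESeq2 and limma-voom did not call it, as the 1 promoter region that each called was that of E2f2. The Cdk15 promoter region was not called either, with 49.3 and 41.5 mean CPM.

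Letters were searched in the 300-base windows on both strands. TCAAGGTCA was in 0 of 58 member windows and in 0.334% of 21263 windows of all genes. AAGGTCA, which TCAAGGTCA contains, was in 1 member window, that of Ccnd3 97 bases before the start and inside its ESRRB region, or 1.72% against 4.08%. Of the E2F-type letters, TTTCCCGC was in the windows of Cdk2, Cdkn2a, E2f3 and E2f7, 6.9% against 1.41% of all windows. TTTCGCGC was in those of Cdk1 and Rbl1, 3.45% against 0.451%, TTTGGCGC in that of E2f2, 39 bases past the start and inside its ESRRB region, and TTTGCCGC in 0. TTTGAA, the letters of the cell cycle homology region, was in 19.0% of member and 16% of all windows, and CCAAT in 48.3% and 38.2%. A match is a description of these letters and no measured site.

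The deposited peak lists, 1 per line, were read beside the calls. Of the 291 regions, 112 (38.5%) overlapped peaks of both lists, 179 (61.5%) the list with Nanog only and 0 the list without only. Over all regions 37.8% were in both lists and 61.4% in the list with Nanog only, so the members followed the table. Of the 112, 10 were higher and 17 lower, beside 7.4% and 20.8% of all such regions, and of 175 tested regions in the list with Nanog only 17 were higher and 1 lower, beside 10.8% and 1.92%. The single lower call, at Cdkn1b, fell although only the list with Nanog holds it. The lists came from the same libraries, and the libraries with Nanog are deeper, so the lists are no independent evidence for the calls. The part of depth in the lists was not tested.

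Other genes of the same pathway, such as licensing factors, mitotic kinases and ubiquitin ligase subunits, were taken from a list of 61. Of these, 54 had a region, and of 210 tested regions 13 were higher and 19 lower. Calls came to 15.2%, beside 19.2% of all regions tested, and the median log2 was 0.0. Skp2, the ligase subunit that marks p27 for degradation, had the smallest adjusted p, at 9134924 to 9135260 on chromosome 15, inside the gene. It rose from 1.49, 0.28 and 0.981 to 4.96, 7.31 and 6.88 CPM (2.84 ± 0.40, edgeR, Benjamini-Hochberg adjusted p = 9.1e-06). Without Nanog these were 4, 1 and 5 counts, and as only the libraries with Nanog reached the count filter, the region was tested because it was high there. Cdc7, a kinase that starts replication origins, fell 10.6 kb from the gene, from 52.3 ± 12.2 to 28.1 ± 6.78 CPM. Mybl2, a factor of the complex that activates mitotic genes, had 2 strongly bound regions that fell from 151 ± 5.85 to 107 ± 7.76 CPM and from 190 ± 19.7 to 139 ± 3.96 CPM. Lin54, the DNA-binding subunit of the same complex, rose from 27.8 ± 6.86 to 45.6 ± 2.20 CPM, and Btrc, a ligase subunit, fell from 37.5 ± 4.56 to 23.8 ± 1.41 CPM. These 6 calls were kept in every alternative that tested them, though that of Skp2 supports no direction.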

How the data were processed

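ESRRB ChIP-seq counts were analysed from 3 libraries of each line. The deposited table holds unnormalised whole-number read counts that the authors made per region, and the 2 deposited peak lists hold coordinates alone. The submitters' processing notes name the build mm10 and, in no stated role, MACS2, Bowtie2, deepTools, bedtools 2.26.0, SAMtools 1.4.1 and bcl2fastq 2.19.1. Settings, the peak threshold and duplicate removal were not given in the sources used. The 6 inputs were not used here. Table columns matched a line and not a replicate number of the labels.

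Members and gene lists were chosen with earlier results of these data known. Regions went to the nearest protein-coding gene by distance from the region's centre to the gene's span. In 5 regions inside overlapping genes the member was taken, and the alternative without these 5 was chosen after seeing the data. So was the one without regions that reach the count filter in 1 line only, that is, in 3 libraries of a line at 1.68 CPM unscaled. Distances upstream or downstream of a start are from RefSeq start sites or, in the plot along 4 genes, from the gene's 5′ end. Coordinates are 1-based.

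The counts were filtered by filterByExpr with the line as group, which removed 1309 regions and left 84892, scaled by TMM and tested in edgeR 4.0.16 (R 4.3.3) by glmQLFit and glmQLFTest, with Benjamini-Hochberg adjustment over all regions, a threshold of 0.05 and no block. Mean log-CPM has a prior count of 2. Sums per gene were tested likewise. The test was tried on simulated data. Chi-square over its degrees of freedom was 1.33 to 2.53 between libraries of a line, so none was a copy of another. This does not tell whether the libraries came from separate cultures. Regions were named by rule, and not all of them are described in the text. They were the strongest region (highest mean log-CPM) of 30 core genes, the 12 largest increases and decreases and the 10 regions of highest signal. Also named were the genes called on summed counts and 6 regions of other pathway genes by adjusted p. Further called regions, the Ccnd3, Cdk6, Cdk15 and Cdkn1a promoters, the other Cdkn2a and Cdkn2b regions and the Cdk8 region were added after their values were seen. Alternatives were other scalings, count filters and distances, DESeq2 1.42.0, limma-voom (limma 3.58.1), a loess offset, thinning to equal totals, a letter block and leaving out each library.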

Additional observations from a re-analysis of the deposited data

How the results depend on the processing

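Region calls were recomputed in 16 alternatives. Of 78 named regions, 28 of 51 calls were lost in at least 1 and 23 kept in all that tested them, 0 turned sign, and 2 regions not called gained a call. Against 27 higher and 18 lower member regions, there were 15 and 12 with DESeq2, 18 and 9 at mean counts from 50 up, 16 and 11 after thinning. Regions inside the gene held 16 and 5, and strongest regions 8 and 6. All of these test fewer reads or regions, but what part that had in the lower counts was not tested. With DESeq2, 40 of the 45 member calls could be tested and 27 were kept. For all regions (7997 and 8306) these were 4786 and 5437 with DESeq2, 4978 and 5503 from 50 counts up, and 5299 and 5043 after thinning. Over the libraries left out, members ranged from 16 to 31 higher and from 9 to 22 lower, all regions from 4988 to 9288 and from 4780 to 8971, and summed genes from 4 to 10 and from 3 to 4. Each was lowest, or tied for lowest, without library B with Nanog. Summed genes were 7 and 2 at 10 kb and 6 and 3 with DESeq2.

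With a replicate block by column letter, members were 34 higher and 28 lower, with all 45 calls kept. The letters were not taken as pairs, since no label says what they mark. The deviations of same-letter libraries correlated at 0.083 for A, 0.223 for B and 0.128 for C. Each of these was above the -0.159 to 0.045 of unlike letters, so the correlations give no reason against pairing. Whether the letters pair the libraries was not tested.

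Signs turned at 8 regions that were not called: Ccnd1 (0.01 with DESeq2 and the loess offset, 0.04 by column totals, 0.05 with limma-voom and the block, 0.03 by upper quartile, 0.004 unfiltered, -0.23 to 0.45 over the libraries left out), Cdkn2d (-0.01 with limma-voom, -0.0048 with the block, -0.16 thinned, -0.11 to 0.12 over the libraries left out), E2f6 (0.08 thinned, -0.14 to 0.12), Ccne1 (0.02, loess), Ccnd3 (-0.03 to 0.06), Ccnb1 (-0.44 to 0.05), Ccna2 (-0.05 to 0.53) and E2f4 (-0.15 to 0.36). Against 9 higher and 5 lower genes on summed counts, sums within 10 kb turned sign at Ccnh (0.18), Cdkn2aip (-0.22) and E2f8 (-0.14), where fewer regions are summed. What caused these shifts was not tested. Thinned to equal depth, 40 of the 45 member calls could be tested and 25 were kept.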
